A study of Mus musculus with 231 samples.

Results

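miR-486a and miR-486b are a pair of near-identical microRNA precursors that share a locus, and together they give the mature strands mmu-miR-486a-5p, mmu-miR-486b-5p, mmu-miR-486a-3p and mmu-miR-486b-3p. Their 4 rows were taken by name from the deposited tables, which hold 1910 mature miRNAs in all. All 4 were present in each of the 3 tables, and the rows of copies a and b were summed before strands and months were compared. The sums are called miR-486-5p and miR-486-3p here. The mature sequences of 0 of the 4 members could be matched in the RefSeq sequence table used here.

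Small RNA was sequenced from the mononuclear cells of peripheral blood (PBMC), drawn repeatedly from C57BL/6 mice. CM mice carried the Cbfb56M allele and Mx1-Cre, so that the Cbfb-MYH11 (CM) fusion gene of inv(16) acute myeloid leukemia (AML) could be switched on by poly(I:C), a double-stranded RNA mimic that drives the Mx1 promoter in blood-forming cells and in other interferon-responsive tissues such as the liver. All mice of both arms received poly(I:C) at 6 to 8 weeks of age, in 7 doses of 14 mg/kg. The genotype label was CHW in all CM mice, and CW, HW or WT in Ctrl littermates. What the codes stand for is not given, and the methods of the study count littermates with the Cbfb56M allele but no Mx1-Cre among the possible controls, so a Ctrl mouse may carry the allele uninduced. The training cohort held 7 CM mice (4 female, 3 male; 53 libraries) and 7 Ctrl mice (2 female, 5 male; 76 libraries) bled at month 0, ahead of induction, and then monthly up to month 10. Validation libraries came from 10 CM mice (5 female, 5 male; 60 libraries) and 6 Ctrl mice (3 female, 3 male; 42 libraries), at points labelled 1 to 7 and L. The design text of the series counts 1 validation CM mouse fewer and 1 Ctrl mouse more than the sample labels, which were followed. Within an arm and month, each library came from a different mouse. PBMC are bulk samples, and a change in the number of cells of one type cannot be told apart from a change in RNA per cell.

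miR-486 is known as a miRNA of red cell precursors and of striated muscle. It lies within Ank1, the gene of erythrocyte ankyrin, which ties the spectrin skeleton of red cells to their membrane, and its 5p strand is the one loaded for the most part into Argonaute. In the GRCm38.p6 annotation of RefSeq, Mir486 (the precursor of copy a) lies on chromosome 8 at 23142555 to 23142682. Mir3107 (the precursor of copy b) lies at 23142573 to 23142662 of the same chromosome. It is 90 nucleotides long and lies inside the interval of Mir486, and its strand was not examined here. In the older NCBIM37 annotation (GENCODE), Mir486 lies on the plus strand of chromosome 8 at 24253027 to 24253154, inside Ank1 (24085316 to 24260969, plus strand). Of 20 annotated Ank1 transcripts, 17 held Mir486 in an intron, 16 of them in the last intron of the transcript, and the other 3 did not span it.

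Some facts of the libraries bear on all values. Training libraries held 1792809 to 7958411 counts, with 15239 to 683555 counts of miR-486-5p and 58 to 2909 counts of miR-486-3p. Serial numbers in the titles run by mouse, except that those of CM mouse 3334 and Ctrl mouse 3335 change places after month 5, so results were also computed without both mice. In the validation cohort, the 12 libraries of point 5 held 1645456 to 5445215 reads, whereas the other 90 libraries held 1744 to 76906 reads.

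The assignment of reads to the copies differed between the tables. In the training counts, nearly all miR-486-5p was given to copy b, and copy a held 0.341% to 1.02% of it (median 0.448% over all training libraries). Copy a held 19.7% to 51.8% of miR-486-3p (median 37.9%). In the deposited CPM (reads scaled by library size and by the factors of the authors), the 5p rows of both copies held the same value in every training and every validation library. The sum of the deposited 5p rows therefore counts each read once for each copy. The deposited 3p rows were close but not equal in the training cohort, where copy a was higher in every library and copy b came to 98.8% of it. Values of a single row depend on how reads were assigned to the copies, and strands were therefore compared as sums, with the single rows tested as alternatives.

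The 5p strand was one of the most abundant miRNAs of the PBMC, and the 3p strand was rare. miR-486-5p made up 0.318% to 11.4% of all training counts (median 2.29%) and ranked between first and place 40 of 1861 rows, with a median rank of 12. miR-486-3p ranked between place 85 and place 303, with a median rank of 167. In the counts, the 3p strand stood at 0.214% to 1.55% of the 5p strand (median 0.418%). In the deposited CPM it stood at 2.21% to 4.78% (median 3.49%). The size of this ratio therefore belongs to the counting, since the counts held a median of 0.152 of the 3p reads of the deposited table and a median of 1.24 times its 5p reads.

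Before induction the arms did not separate. At month 0, miR-486-5p was 9509, 12046 and 19207 CPM in CM mice (lowest, median and highest of 7) and 8052, 14187 and 38124 CPM in Ctrl mice (n = 7), where these CPM were computed from the training counts. miR-486-3p was 33.1, 44.9 and 151 CPM in CM mice and 25.6, 43.4 and 485 CPM in Ctrl mice. The range of the CM mice lay within that of the Ctrl mice for both strands. The log2 fold change, CM over Ctrl, was -0.25 ± 0.33 (SE) for 5p (edgeR, adjusted p = 0.773) and -1.31 ± 0.66 for 3p (edgeR, adjusted p = 0.414), where 0.21% of 476 miRNAs tested were called at that month. Ctrl mice 3340, 3342 and 3350 stood apart from the other Ctrl mice in 3p, at 245, 485 and 247 CPM. The same libraries held 14732, 30026 and 5694 CPM of miR-144-5p, an erythroid miRNA, against 1242 to 2405 CPM in the other 4 Ctrl mice. Of the 7 erythroid miRNAs listed below, miR-144-5p was the closest to miR-486-3p over all training libraries (Spearman's rho 0.93). The others had rho between -0.60 and 0.75. Without Ctrl mice 3340, 3342 and 3350, the log2 fold change was 0.51 for 5p (edgeR, adjusted p = 0.318) and 0.93 for 3p (edgeR, adjusted p = 0.259).

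At month 1 both strands were higher in CM mice. miR-486-5p was 12466, 18373 and 148318 CPM in CM mice (lowest, median and highest of 7; mean 48921 ± 57266 SD) and 5917, 7999.8 and 16549 CPM in Ctrl mice (n = 7; mean 9009.9 ± 3585). CM mice 3336 and 3368 stood far above the rest, at 114563 and 148318 CPM, and the other 5 CM mice lay between 12466 and 20019 CPM. In the libraries of these 2 mice miR-144-5p stood at 42597 and 31582 CPM and miR-150-5p, a miRNA of mature lymphocytes, at 13081 and 15568 CPM, against 3387 to 4674 CPM and 31728 to 50697 CPM in the other 5. Of the erythroid miRNAs listed below, miR-144-5p was also the closest to miR-486-5p over all training libraries (Spearman's rho 0.91). The others had rho between -0.66 and 0.80. Of 7 CM mice, 4 exceeded every Ctrl mouse in miR-486-5p. miR-486-3p was 52.5, 106.98 and 606 CPM in CM mice and 23.4, 31.2 and 45.1 CPM in Ctrl mice, and here all 7 CM mice exceeded every Ctrl mouse, a separation shown by 2.57% of 467 miRNAs at this month. The log2 fold change was 2.47 ± 0.61 for 5p (edgeR, adjusted p = 0.0114) and 2.83 ± 0.57 for 3p (edgeR, adjusted p = 0.0055), at a month when 26.4% of 470 miRNAs tested were called and 14.0% were called higher.

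**Figure D1:**
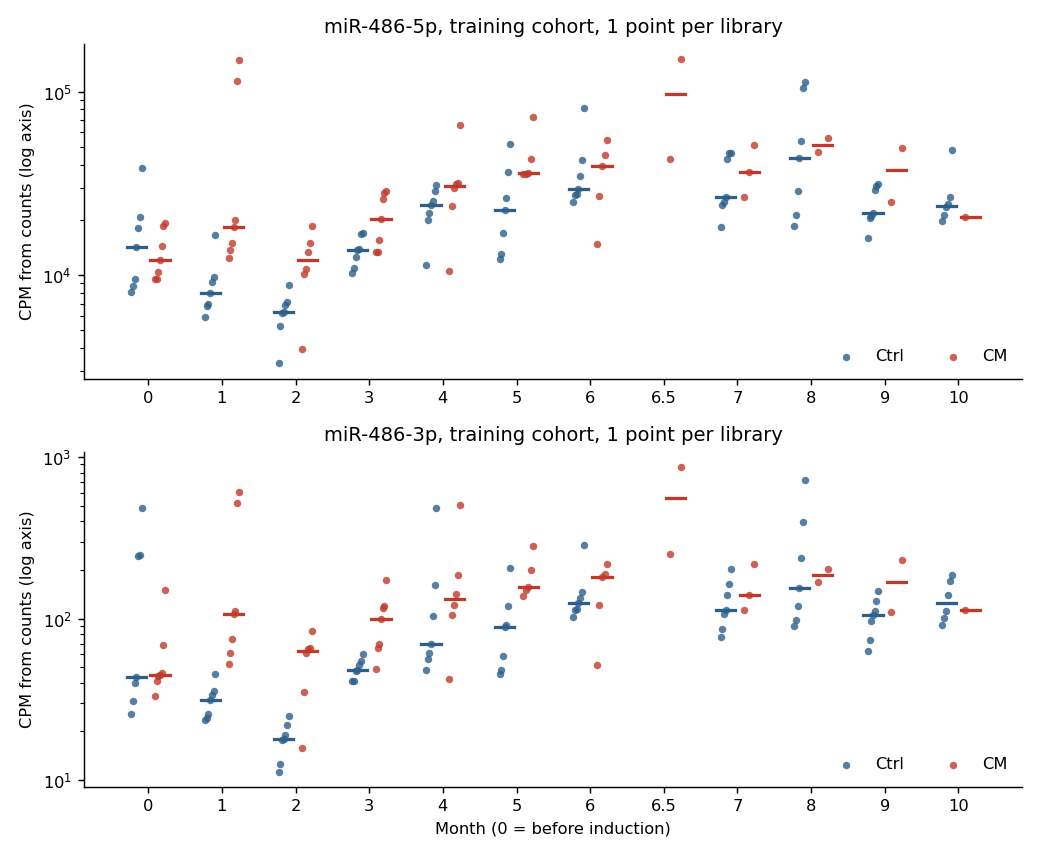
Level of miR-486-5p (top) and miR-486-3p (bottom) in each training library, as CPM computed from the training counts on a log axis, against month, with Ctrl in blue, CM in red and bars at the medians. CM mice 3336 and 3368 are the top points of month 1, and the Ctrl medians of both strands are lowest at month 2.

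The difference at month 1 did not rest on the 2 highest mice alone. Without CM mice 3336 and 3368, it was 0.89 for 5p (edgeR, adjusted p = 0.0245) and 1.45 for 3p (edgeR, adjusted p = 0.00124). In the deposited CPM, where the summed 5p rows were 21647, 31291 and 255788 in CM and 9677, 12869 and 28219 in Ctrl mice, the log2 difference was 1.83 (exact permutation test, two-sided, p = 0.00233, adjusted p = 0.0163 over 7 months), with an adjusted p of up to 0.0571 when Ctrl mouse 3339, 3340, 3342, 3346 or 3350 was left out. For 3p it was 1.803 (exact permutation test, p = 0.00175, adjusted p = 0.00612). The full separation in 3p was not seen in the deposited CPM, where 5 of 7 CM mice exceeded every Ctrl mouse. The lowest CM mouse stood at 846 and the highest Ctrl mouse at 979. All 4 single rows were called higher in CM when tested as deposited in the counts, with log2 fold changes between 2.46 (mmu-miR-486b-5p) and 2.98 (mmu-miR-486a-3p), where 14.6% of rows were called higher. With the G number of the titles, a code that is not explained, as a covariate, the fold changes were 1.32 (edgeR, adjusted p = 0.201) and 1.69 (edgeR, adjusted p = 0.117). Within single G numbers that held both arms at month 1, the 5p difference was 3.16 (1 CM and 1 Ctrl library), 0.89 (2 and 3 libraries) and 0.86 (1 and 2 libraries), and the 3p difference was 3.72, 1.30 and 0.86.

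At month 2 miR-486-3p was higher in CM mice. miR-486-3p was 15.7, 62.9 and 84.1 CPM in CM mice (n = 6) and 11.3, 17.97 and 24.96 CPM in Ctrl mice (n = 7), and 5 of 6 CM mice exceeded every Ctrl mouse. Its log2 fold change was 1.57 ± 0.33 (edgeR, adjusted p = 0.00948). miR-486-5p was 3951, 12032 and 18400 CPM in CM mice and 3302, 6303 and 8831 CPM in Ctrl mice, again with 5 of 6 CM mice above every Ctrl mouse, and its log2 fold change of 0.88 ± 0.30 missed the threshold (edgeR, adjusted p = 0.065). Calls were made for 13.4% of 479 miRNAs at this month, with 6.26% higher in CM and 7.1% lower. CM mouse 3370 was the lowest CM mouse for both strands, and without it the 5p difference was called (edgeR, log2 fold change 1.11, adjusted p = 0.00872), as it was without Ctrl mouse 3349 (edgeR, 1.03, adjusted p = 0.0246). The 5p difference was also past the threshold with DESeq2 (0.93, adjusted p = 0.0233) and with the reads recovered from the deposited CPM (edgeR, 0.93, adjusted p = 0.0455). With the G number as a covariate, the 3p fold change was 1.49 (edgeR, adjusted p = 0.301).

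At month 3 both strands were higher in CM mice by less than at month 1. miR-486-5p was 13386, 20178 and 28696 CPM in CM mice (n = 7; mean 20759 ± 6854) and 10320.3, 13623 and 16938 CPM in Ctrl mice (n = 7; mean 13576 ± 2557), and 4 of 7 CM mice exceeded every Ctrl mouse. miR-486-3p was 48.4, 99.999 and 174 CPM in CM mice and 41.0, 47.8 and 60.5 CPM in Ctrl mice, and 6 of 7 CM mice exceeded every Ctrl mouse. The log2 fold change was 0.64 ± 0.21 for 5p (edgeR, adjusted p = 0.0434) and 1.04 ± 0.25 for 3p (edgeR, adjusted p = 0.00911), with 22.1% of 453 miRNAs called, 11.5% higher and 10.6% lower. The 5p value was near the threshold, since leaving out Ctrl mice 3339, 3340, 3346 or 3350 or CM mice 3341 or 3357 gave adjusted p of up to 0.067 (edgeR). With all training libraries in 1 fit, the adjusted p was 0.288 for 5p (log2 fold change 0.67) and 0.144 for 3p (1.05, edgeR), and with the G number within the month the 3p fold change was 2.13 (edgeR, adjusted p = 0.0807).

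From month 4 to month 6 no difference between the arms was called. At month 4, miR-486-5p was 10485, 30565 and 65821 CPM in CM mice (n = 6) and 11294, 24198 and 31147 CPM in Ctrl mice (n = 7). Its log2 fold change was 0.54 ± 0.34 (edgeR, adjusted p = 0.428), and miR-486-3p had 0.46 ± 0.62 (edgeR, adjusted p = 0.757). At this month 0.84% of 476 miRNAs were called. The highest 3p values came from 1 mouse of each arm, CM mouse 3334 at 507 CPM and Ctrl mouse 3349 at 482 CPM. Without CM mouse 3334 the 3p log2 fold change turned to -0.17, and without mice 3334 and 3335 it was -0.32 (edgeR, adjusted p = 0.804).

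At month 5, 4 of the 5 CM mice lay in the upper part of the Ctrl range and mouse 3341 lay above it. miR-486-5p was 35509 CPM in mouse 3370, 35672 in mouse 3368, 35884 in mouse 3334, 42952 in mouse 3336 and 73080.0 in mouse 3341, against 12262, 22638 and 51847 CPM in the Ctrl mice (n = 7). The Ctrl mouse at 51847 CPM was mouse 3335, and 5 of 7 Ctrl mice lay below every CM mouse. The log2 fold change was 0.81 ± 0.36 for 5p (edgeR, adjusted p = 0.222) and 0.99 ± 0.37 for 3p (edgeR, adjusted p = 0.182), and 0 of 503 miRNAs were called by edgeR, with 21.1% at an unadjusted p under 0.05, whereas DESeq2 called 21. Without Ctrl mouse 3335 the fold changes were 1.12 (edgeR, adjusted p = 0.0449) and 1.35 (edgeR, adjusted p = 0.0252), and without mice 3334 and 3335 they were 1.14 (edgeR, adjusted p = 0.0488) and 1.36 (edgeR, adjusted p = 0.0305).

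At month 6 the arms overlapped. The 5 CM mice had 14709.5 (mouse 3341), 27086 (mouse 3334), 39110.1 (mouse 3368), 45287 (mouse 3370) and 54231 CPM (mouse 3336) of miR-486-5p, and the Ctrl mice had 24994, 29441 and 81403 CPM (lowest, median and highest of 7). The log2 fold change was -0.12 ± 0.37 for 5p (edgeR, adjusted p = 0.9) and 0.03 ± 0.36 for 3p (edgeR, adjusted p = 0.965), and 0 of 442 miRNAs were called by edgeR, with 31 at an unadjusted p under 0.05, and 0 by DESeq2. A pair of CM libraries labelled T6p5, read as month 6.5, held 43060 CPM of 5p in mouse 3334 and 150048 CPM in mouse 3336, the highest 5p value of the cohort. With these in place of the month 6 libraries of both mice, the 5p fold change was 0.64 (edgeR, adjusted p = 0.422).

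**Figure D2:**
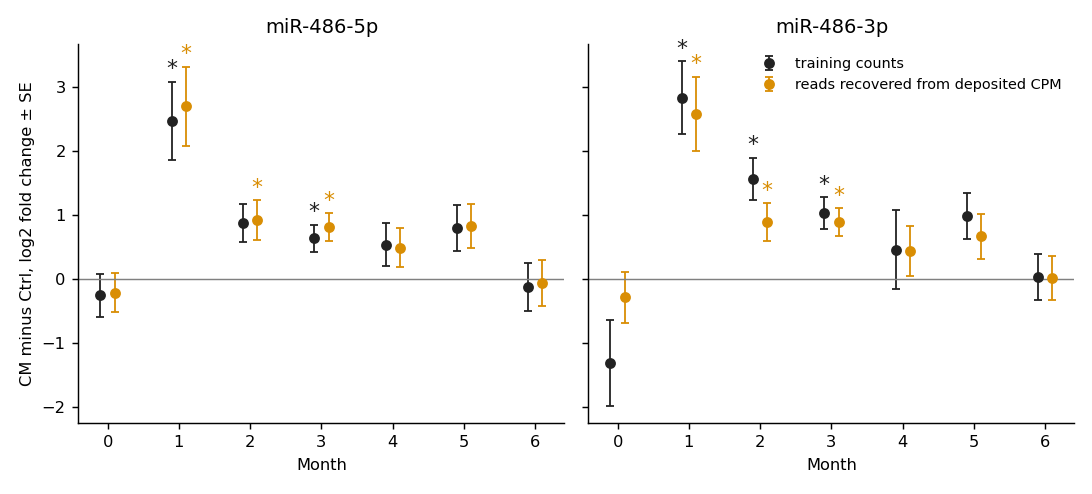
Log2 fold change of CM over Ctrl (points, with SE as bars) at months 0 to 6 for miR-486-5p and miR-486-3p, from the training counts (black) and from reads recovered from the deposited CPM (orange); asterisks mark an edgeR adjusted p under 0.05. Both countings give their highest value at month 1, and for 3p at month 0 they lie furthest apart, at -1.31 and -0.28.

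Few CM mice remained after month 6, and these months are described with no test. At month 7 the 3 CM mice had 26667, 36373 and 51310 CPM of miR-486-5p, against 18251, 26596 and 46540 CPM (lowest, median and highest of 7) in Ctrl mice. At month 8 the 2 CM mice had 46829 and 56071 CPM, within the Ctrl range of 18619 to 113029 CPM. At month 9 they had 25039 and 49259 CPM against 15907 to 31251 CPM, and at month 10 the only CM mouse (3368) had 20658 CPM against 19765 to 47784 CPM in 6 Ctrl mice. At months 7 and 9, 4 of 7 Ctrl mice lay below every CM mouse and 1 CM mouse lay above every Ctrl mouse.

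Over months 1 to 6 together, CM mice held more of both strands. The mean log2(CPM + 1) of each mouse was 14.55 ± 0.39 (SD) in 7 CM and 13.89 ± 0.31 in 7 Ctrl mice for 5p, a difference of 0.66 (exact permutation test over mice, two-sided, p = 0.00524, adjusted p = 0.00524 over both strands). For 3p it was 6.79 ± 0.44 and 5.83 ± 0.37, a difference of 0.97 (exact permutation test, p = 0.00233, adjusted p = 0.00466). Of 7 CM mice, 4 exceeded every Ctrl mouse in 5p and 5 did so in 3p. This test was run on the 2 strands only, so the share of all miRNAs with such a difference is not known. In single months edgeR called 26.4% of all miRNAs at month 1 and 22.1% at month 3. The means rest on different months, since mice 3338 and 3357 had libraries up to month 4 only, mouse 3334 lacked month 2 and mouse 3336 month 4. Over months 1 and 3, which every mouse has, the difference was 1.16 for 5p (exact permutation test, p = 0.00117, adjusted p = 0.00117) and 1.51 for 3p (exact permutation test, p = 0.000583, the smallest this design can give, adjusted p = 0.00117). Within the 7 G numbers, pooled over months 1 to 6, the 5p difference lay between 0.02 and 1.54 and the 3p difference between -0.07 and 1.96. The arms hold different months within a G number, so that month and arm are mixed in these values.

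The next comparison followed the same mice from month 0. In CM mice, miR-486-5p rose from month 0 to month 1, by 1.91 ± 0.60 on the log2 scale (edgeR, adjusted p = 0.0476; 12.7% of 464 miRNAs called, 6.9% higher), and miR-486-3p had 1.88 ± 0.61 (edgeR, adjusted p = 0.0543). The 5p level was higher at month 1 in 6 of 7 CM mice, with mouse 3370 at 14317 and 13768 CPM as the exception. The size of the change rested on mice 3336 (12046 to 114563 CPM) and 3368 (19207 to 148318 CPM). Without both mice the 5p fold change was 0.36 (edgeR, adjusted p = 0.341), and without any 1 of 6 of the 7 mice the adjusted p reached up to 0.156 (edgeR). Both libraries of a pair came from 1 animal, and in the fit with the mouse as a block the 5p change was 1.09 (edgeR, adjusted p = 0.168).

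In Ctrl mice given the same poly(I:C), no change from month 0 to month 1 was called. The log2 fold change was -0.90 ± 0.35 for 5p (edgeR, adjusted p = 0.29) and -2.37 ± 0.64 for 3p (edgeR, adjusted p = 0.163; 0.633% of 474 miRNAs called). Ctrl mice 3340, 3342 and 3350, the ones high in 3p at month 0, went from 245, 485 and 247 CPM to 35.8, 25.8 and 24.3 CPM. Without them the changes were -0.04 for 5p (edgeR, adjusted p = 0.962) and -0.05 for 3p (edgeR, adjusted p = 0.928). The test of the difference between the arms in this change gave 2.82 ± 0.72 for 5p (edgeR, adjusted p = 0.0169) and 4.24 ± 0.92 for 3p (edgeR, adjusted p = 0.00658; 6.95% of 518 miRNAs called). Without these 3 Ctrl mice the differences were 1.86 (edgeR, adjusted p = 0.28) and 1.85 (edgeR, adjusted p = 0.283). Without CM mice 3336 and 3368 they were 1.27 (edgeR, adjusted p = 0.183) and 3.20 (edgeR, adjusted p = 0.023), and the fit blocked on the mouse gave 1.85 (edgeR, adjusted p = 0.105) and 2.80 (edgeR, adjusted p = 0.0725). Leaving out only CM mouse 3336 or only Ctrl mouse 3342 also ended the 5p call, at 2.38 (edgeR, adjusted p = 0.0659) and 2.47 (edgeR, adjusted p = 0.0545).

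Levels of miR-486-5p were also higher late than before induction in both arms. The last CM libraries were of months 4 (mice 3338 and 3357), 6 (3341), 6.5 (3334), 7 (3336), 9 (3370) and 10 (3368). They are therefore not matched in time to the Ctrl libraries of month 6. Between the last CM library of each mouse and month 0, the log2 fold change was 0.92 ± 0.29 for 5p (edgeR, adjusted p = 0.0188) and 0.97 ± 0.42 for 3p (edgeR, adjusted p = 0.0787), with 38.3% of 444 miRNAs called, 22.5% higher and 15.8% lower. Without mice 3334, 3336 or 3370 in turn, the 5p call was lost, with adjusted p of up to 0.0822 (edgeR), and without mouse 3368 the 3p change was 1.40 (edgeR, adjusted p = 0.0114). In Ctrl mice between months 0 and 6, the 5p strand had 1.29 ± 0.39 (edgeR, adjusted p = 0.0325; 11.2% of 472 miRNAs called higher), and the call was lost without any 1 of 5 mice (3335, 3339, 3346, 3349 or 3350; adjusted p of up to 0.113, edgeR). The 3p strand of the same Ctrl mice had -0.05 ± 0.61 (edgeR, adjusted p = 0.965), 0.72 in the fit blocked on the mouse (edgeR, adjusted p = 0.512), and 2.33 without mice 3340, 3342 and 3350 (edgeR, adjusted p = 0.00657). With the reads recovered from the deposited CPM it was 1.09 (edgeR, adjusted p = 0.0653).

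The ratio of the strands differed between the arms in the counts, and no such difference was called in the deposited CPM. In the counts, 3p per 5p was 0.409%, 0.455% and 0.582% in CM mice (lowest, median and highest of 7) and 0.273%, 0.382% and 0.447% in Ctrl mice at month 1, and 0.325%, 0.444% and 0.636% (n = 6) against 0.214%, 0.283% and 0.381% (n = 7) at month 2. The log2 difference in the ratio was 0.41 at month 1 (exact permutation test, adjusted p = 0.0122 over 7 months), 0.62 at month 2 (exact permutation test, adjusted p = 0.0163), 0.35 at month 3 (exact permutation test, adjusted p = 0.0122) and 0.20 at month 5 (exact permutation test, adjusted p = 0.0163). In the deposited CPM the same differences were -0.026, -0.047, 0.10 and -0.13 (exact permutation tests, adjusted p = 0.958 each). The counts and the deposited CPM are 2 countings of the same libraries, so the ratio result holds for 1 of the 2 countings.

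**Figure D3:**
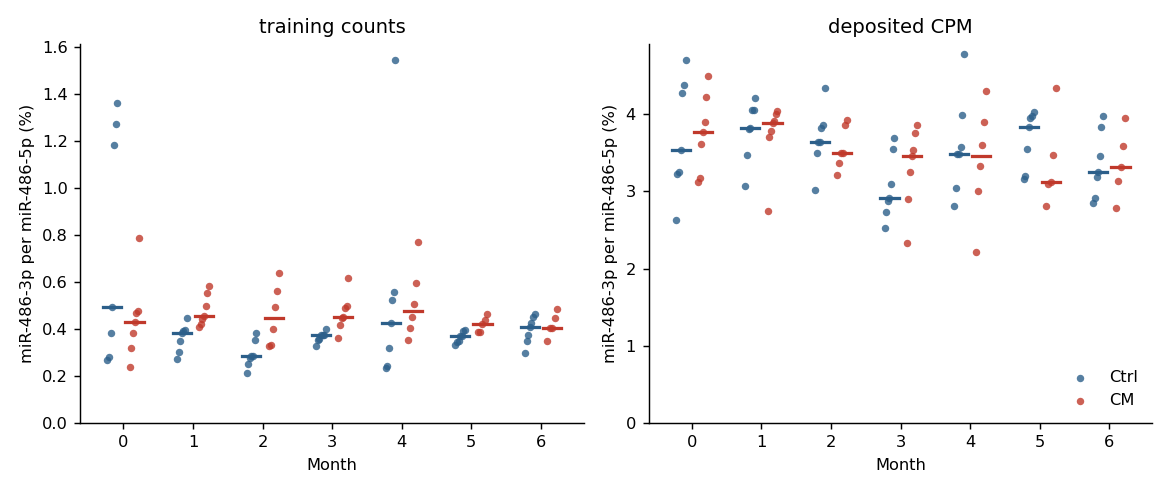
miR-486-3p as a percentage of miR-486-5p in each training library at months 0 to 6, in the training counts (left) and in the deposited CPM (right), with Ctrl in blue, CM in red and bars at the medians. The 4 Ctrl libraries above 1% in the counts (3 at month 0, 1 at month 4) stand at 4.27% to 4.78% in the deposited CPM. The other Ctrl libraries stand at 2.63% to 3.54% at month 0 and 2.81% to 3.99% at month 4, and CM libraries reach 4.49%.

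The Ctrl libraries with a high 3p share in the counts were mice 3340, 3342 and 3350 at month 0, at 1.18%, 1.27% and 1.36%, and mouse 3349 at month 4, at 1.55%. In these 4 libraries the counts held 0.352 to 0.419 of the 3p reads of the deposited table, whereas no other library exceeded 0.269. The deposited 3p per 5p of the same libraries was 4.27% to 4.78%, also above the other Ctrl libraries of their months. Those stood at 2.63% to 3.54% at month 0 and 2.81% to 3.99% at month 4, and the highest CM library stood at 4.49%.

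At month 1, 4 of 7 other miRNAs of an erythroid list were higher in CM. All 7 were tested and none was called lower, beside 14.0% of all 470 miRNAs called higher, with a median log2 fold change of 1.12 over the list and -0.10 over all miRNAs tested. The 4 were miR-144-5p with 2.94 ± 0.63 (edgeR, adjusted p = 0.00588), miR-144-3p with 2.00 ± 0.48 (edgeR, adjusted p = 0.0107) and miR-451a with 1.90 ± 0.62 (edgeR, adjusted p = 0.0344), which share a cluster on chromosome 11, and miR-25-3p with 1.12 ± 0.37 (edgeR, adjusted p = 0.0391). The other members had -0.13 ± 0.81 (miR-16-5p; edgeR, adjusted p = 0.918), -0.16 ± 0.28 (miR-92a-3p; edgeR, adjusted p = 0.712) and -0.16 ± 0.17 (miR-363-3p; edgeR, adjusted p = 0.495). miR-144-5p was 3387 to 42597 CPM in CM and 1175 to 2423 CPM in Ctrl mice. The summed level of the list was 53069, 83941 and 466755 CPM in CM mice (lowest, median and highest of 7) and 37935, 65650.1 and 108993 CPM in Ctrl mice. None of the 7 miRNAs was at 0 in any training library, and their part in the difference of miR-486 was not tested.

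At months 2 and 3 fewer erythroid miRNAs were called. At month 2, where 6.26% of all miRNAs were called higher, only miR-144-5p of the list was called, with 1.22 ± 0.31 (edgeR, adjusted p = 0.0198), and the summed level of the list was 29191, 44741 and 65887 CPM in CM (n = 6) against 17837, 57324 and 62919 CPM in Ctrl mice (n = 7). At month 3, with 11.5% of all miRNAs called higher, miR-144-5p had 1.08 ± 0.24 (edgeR, adjusted p = 0.00558) and miR-144-3p 1.19 ± 0.38 (edgeR, adjusted p = 0.0355), whereas miR-451a had 0.13 ± 0.22 (edgeR, adjusted p = 0.72). At that month the summed level overlapped, at 46692, 68928 and 114782 CPM in CM and 55502, 77961 and 102366 CPM in Ctrl mice. In months 0, 4, 5 and 6 none of the 7 was called, with medians over the list between -0.12 and 0.53. Of all miRNAs tested, only 0.21%, 0.84%, 0% and 0% were called at these months. In the last CM library, 2 of the 7 were called lower than at month 0 and none higher, beside 15.8% of all miRNAs called lower, among them miR-451a with -0.91 ± 0.34 (edgeR, adjusted p = 0.0469).

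miRNAs of striated muscle, the other tissue known for miR-486, were rare in most libraries but also differed. Of 6 muscle miRNAs, 3 were tested at month 1 and 2 were called higher in CM, miR-133a-3p with 3.99 ± 0.69 (edgeR, adjusted p = 0.00203) and miR-499-5p, and miR-1a-3p had 1.58 ± 0.74 (edgeR, adjusted p = 0.129). miR-133a-3p was 4.79 to 33.2 CPM in CM and 0 to 1.82 CPM in Ctrl mice. At month 2, 2 of 4 tested were called higher, and at month 3, 2 of 3, beside 14.0%, 6.26% and 11.5% of all miRNAs called higher at months 1, 2 and 3. At month 4, 1 of 3 (miR-499-5p) was called higher, beside 0.84% of all miRNAs called in either direction. At months 5 and 6 none of the 3 was called, where 0% of all miRNAs were called. The median log2 fold change over the list was 2.03, 1.31 and 3.55 at months 4, 5 and 6. In the last CM library, 1 of 3 (miR-499-5p) was called higher than at month 0, beside 22.5% of all miRNAs called higher. The summed level of the list at month 1 was 55.3, 281 and 468 CPM in CM and 16.5, 91.5 and 149 CPM in Ctrl mice. Of the list, miR-208b-3p was at 0 in 87.6% of training libraries and miR-206-3p in 40 libraries. The part of muscle RNA in the difference of miR-486 was not tested.

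No white cell miRNA of the lists was called at month 1. None of 4 mature lymphocyte miRNAs, 2 myeloid miRNAs and 2 pan-hematopoietic miRNAs was called, beside 26.4% of all miRNAs called in either direction. Their median log2 fold changes were -0.38, -0.62 and -0.37. miR-150-5p was 13081 to 50697 CPM in CM and 28087 to 60054 CPM in Ctrl mice, and miR-223-3p, a miRNA of granulocytes and monocytes, was 3858 to 11064 and 4871 to 26751 CPM. At month 2, 1 pan-hematopoietic miRNA was called lower, beside 7.1% of all miRNAs called lower. At month 3, 1 lymphocyte and 1 pan-hematopoietic miRNA were called lower and 1 myeloid miRNA higher, beside 10.6% of all miRNAs called lower and 11.5% higher. In the last CM library, 3 of 4 lymphocyte and 1 of 2 myeloid miRNAs were called lower than at month 0, beside 15.8% of all miRNAs. In Ctrl mice at month 6 these were 1 of 4 and 2 of 2, where 99 of 472 miRNAs were called in either direction.

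Across all training libraries, the levels of both strands followed each other and followed miR-144-5p. As a description over libraries that share mice, months and depth, Spearman's rho of miR-486-5p was 0.93 with miR-486-3p, 0.91 with miR-144-5p, 0.89 with miR-30a-5p, 0.87 with miR-30a-3p and 0.82 with miR-8114, the 5 highest of 497 miRNAs. For miR-486-3p the 5 highest were miR-144-5p (0.93), miR-486-5p (0.93), miR-30a-3p (0.82), miR-30a-5p (0.82) and miR-8114 (0.79). The values held in each arm, at 0.93 in CM (n = 53) and 0.91 in Ctrl (n = 76) for miR-486-5p with miR-144-5p. With miR-150-5p rho was -0.57. With the striated muscle miRNAs compared, rho of miR-486-5p was 0.18 (miR-1a-3p), 0.26 (miR-133b-3p), 0.45 (miR-133a-3p) and 0.495 (miR-499-5p). The erythroid list did not move as 1 group, since miR-363-3p had rho of -0.66 and miR-92a-3p -0.05 with miR-486-5p.

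The sequences of the miRNAs most alike in level, and of the erythroid cluster, are given to show how they differ from each other. They are from RefSeq (GRCm38.p6), 5′ to 3′, with the seed (bases 2 to 8) in capitals, and all 6 seeds differ.
miR-144-5p: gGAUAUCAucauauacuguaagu
miR-144-3p: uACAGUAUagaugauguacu
miR-451a: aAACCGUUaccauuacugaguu
miR-30a-5p: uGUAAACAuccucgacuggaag
miR-30a-3p: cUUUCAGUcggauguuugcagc
miR-8114: uCACCCAUcuccucuccgccu

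miR-144 and miR-451a come from neighbouring positions on chromosome 11, with miR-144-5p at 78073010 to 78073032 and miR-451a at 78073186 to 78073207 on the plus strand, and both strands of miR-30a come from chromosome 1. None of these lies on chromosome 8 with Mir486.

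**Figure D4:**
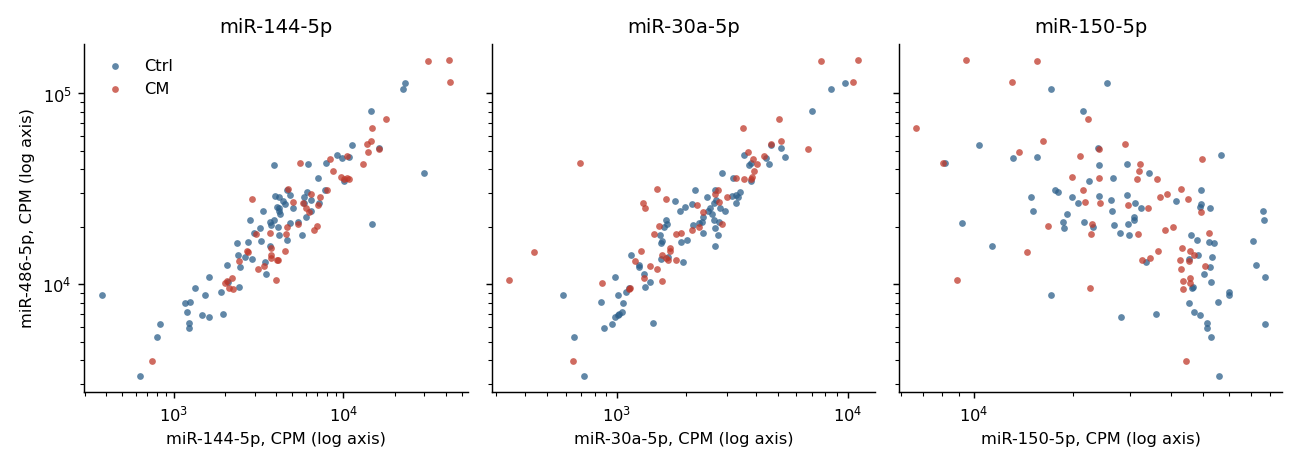
Level of miR-486-5p against miR-144-5p, miR-30a-5p and miR-150-5p in all training libraries, as CPM on log axes, with Ctrl in blue and CM in red. miR-486-5p rises along miR-144-5p (rho 0.91) and miR-30a-5p (0.89) in both arms and falls along miR-150-5p (-0.57).

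In the validation cohort only point 5 had the depth to compare miR-486. There miR-486-5p had 56847 to 131679 reads in CM and 56996 to 163937 reads in Ctrl mice (row of copy a). As a share of all reads it was 1.21% in mouse 2700, 1.41% in 2685, 1.68% in 2684, 2.86% in 2686, 3.34% in 2709 and 3.73% in 2718 among the CM mice, and 1.19% in mouse 2683, 2.17% in 2720, 2.55% in 2689, 2.84% in 2702, 3.29% in 2705 and 4.26% in 2692 among the Ctrl mice. The arms covered the same range. The difference in log2(CPM + 1) was -0.15 ± 0.34 for 5p (limma-trend, adjusted p = 0.982) and -0.18 ± 0.35 for 3p (limma-trend, adjusted p = 0.978), and 0 of 928 miRNAs were called by limma-trend, with 54 at an unadjusted p under 0.05, and 0 of 477 by edgeR on the recovered reads. The 3p strand stood at 2.79% to 4.95% of the 5p strand (median 4.57% of 12 libraries).

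At the other points miR-486 was near the limit of detection. The 90 libraries held 0 to 8 reads of miR-486-5p (median 1) and 0 to 5 reads of miR-486-3p (median 1), and 42 of them had 0 reads of 5p. A count of 0 allows up to 3 reads, which was 50.6 to 293 CPM of the deposited scale in these libraries. Differences between the arms were not detectable at this depth at points 1, 2, 3, 4, 6 and 7. The highest fitted value was that of point 2, at 3.78 for 5p (limma-trend, adjusted p = 0.251; 2.82% of 142 miRNAs called). At point L the 5 CM libraries had 0, 0, 0, 0 and 1 reads of 5p out of 2547 to 16945, and the same mice had 8, 2, 2, 1 and 0 reads at point 1. The fitted change in log2(CPM + 1) was -5.06 ± 1.92 (limma-trend, adjusted p = 0.0638) for 5p and -4.60 ± 1.90 (limma-trend, adjusted p = 0.0816) for 3p, where 18.2% of 165 miRNAs were called, and it rests on steps of a few reads in libraries of unequal depth. Without mouse 2719, whose L library held the 1 read, the 5p value was -7.60 (limma-trend, adjusted p = 0.0135), where all 4 remaining L libraries are at 0 reads, so that its size is set by the pseudocount and the depth and is no measured level.

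**Figure D5:**
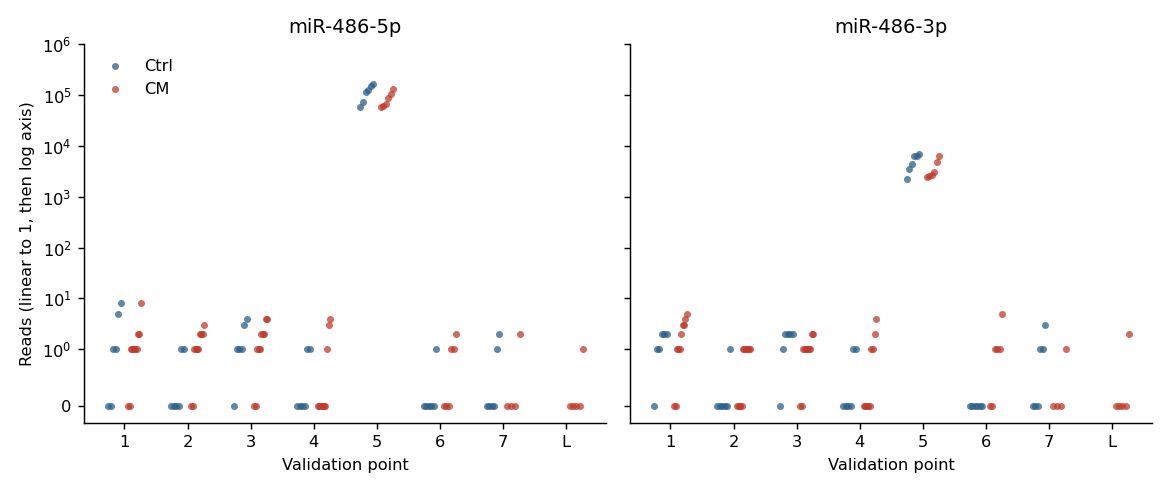
Reads of miR-486-5p (left) and miR-486-3p (right) in each validation library by point, with Ctrl in blue and CM in red, on an axis that is linear up to 1 and logarithmic above. Only the 12 libraries of point 5 hold more than 8 reads, and the other 90 hold 0 to 8 reads of 5p.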

How the data were processed

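Small-RNA libraries of mouse PBMC were analysed from the files that the authors deposited. The methods state that adapters were trimmed with cutadapt, reads aligned to mm9 with Bowtie and counts scaled with TMM in edgeR by the authors, whereas the processing notes name GRCm38, so the build is not settled. The deposited training counts are whole-number counts of 1863 mature miRNAs, made by the authors with mirTOP. The deposited CPM tables (1895 and 1817 miRNAs) hold a scaled signal, made by the authors with another counting than the mirTOP counts, and 100% of values above 0 were whole multiples of the lowest value of their column within 0.02, which gave reads per row. All sample columns were used. Rows of copies a and b were summed per strand. Recovered reads were taken from the row of copy a, since the 5p rows are equal.

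Counts were tested with edgeR 4.0.16 (quasi-likelihood F test, TMM, filterByExpr) in R 4.3.3, 1 month at a time and without covariates, validation values by limma-trend (version 3.58.1) of log2(CPM + 1), in which a step from 0 to 1 read is a large change in the shallow libraries, for rows at 1 CPM or more, and single values by exact permutation of the mice (two-sided, scipy 1.17.1). p-values were adjusted by Benjamini-Hochberg over all miRNAs tested, or over 7 months or 2 strands where stated, with a threshold of 0.05. CPM from counts used TMM over all training libraries, and the strand ratio used a pseudocount of 0.5. The tests were checked on simulated data. In changes over time, libraries are paired because they come from the same animal. The correlation of the deviations of a mouse from the group means lay between -0.216 and 0.145 in 4 comparisons of 7 mice, and the fit with the mouse as a block was the alternative. Alternatives were DESeq2 1.42.0, raw library sizes, other filters and pseudocounts, sex or the G number as a covariate, all libraries in 1 fit, single rows and leaving out mice. Recovered reads, mouse means over the months every mouse has, and leaving out mice 3336 and 3368 or mice 3340, 3342 and 3350, were added after the data were seen. The miRNAs sharing a seed with a member, which the rule for named miRNAs asked for, are not reported here. The members, marker lists and this rule (the members, the 5 miRNAs most alike, and set marker miRNAs) were chosen with earlier results of these data known. Floors cover counting error only. The SE of edgeR was computed from the fold change and its F value and includes the spread between mice, and SD values are over mice.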

Additional observations from a re-analysis of the deposited data

Results flagged for a closer look

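Of 58 groups of libraries examined for a single value far from the rest, 3 had one, and chance alone gives one in about 5% of such groups. At month 5, CM mouse 3341 stood apart in miR-486-5p with 73080.0 CPM, the other 4 CM mice lying between 35509 and 42952 CPM. At month 10, Ctrl mouse 3335 stood apart in miR-486-5p with 47784 CPM, the other 5 Ctrl mice lying between 19765 and 26697 CPM. At month 6, Ctrl mouse 3349 stood apart in miR-486-3p with 284 CPM, against 102.9 to 147 CPM in the other 6 Ctrl mice.

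The change from month 0 to month 1 differed between CM and Ctrl mice by a log2 fold of 2.82 for miR-486-5p (edgeR, adjusted p = 0.0169) and 4.24 for miR-486-3p (edgeR, adjusted p = 0.00658). With the reads recovered from the deposited CPM the difference was 2.84 for 5p (edgeR, adjusted p = 0.011) and 2.81 for 3p (edgeR, adjusted p = 0.0145). With the mouse as a block the difference was 1.85 for 5p (edgeR, adjusted p = 0.105) and 2.80 for 3p (edgeR, adjusted p = 0.0725). Without Ctrl mice 3340, 3342 and 3350, the highest in 3p counts at month 0, it was 1.86 for 5p (edgeR, adjusted p = 0.28) and 1.85 for 3p (edgeR, adjusted p = 0.283). Without CM mice 3336 and 3368 it was 1.27 for 5p (edgeR, adjusted p = 0.183) and 3.20 for 3p (edgeR, adjusted p = 0.023).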

How the results depend on the processing

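Of 333 values under alternatives other than leaving out 1 mouse, 279 kept their direction and their side of the threshold, 25 lost a call, 11 gained one and 18 turned sign. The causes were not tested. Values are log2 differences, 5p before 3p where both are given.

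With the G number as a covariate, month 1 gave 1.32 and 1.69 and month 3 gave 1.41 and 2.13, all without a call, month 2 gave 1.49 for 3p without a call and month 6 gave 0.60 for 5p. This fit was not run at month 4, where it could not be estimated. With all training libraries in 1 fit, month 3 gave 0.67 and 1.05, and with the G number added 0.45 and 0.66, without calls, and month 6 turned to -0.13 for 3p. The 5p value of month 2 was called with DESeq2 (0.93), with at least 10 counts in every library (0.98), for mmu-miR-486a-5p alone (1.12) and with recovered reads (0.93). The 5p call of month 3 was lost with no filter (0.62) and with sex as a covariate (0.59). The 5p value of month 6 turned to 0.64 with the T6p5 libraries and to 0.057 for mmu-miR-486a-5p alone.

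Without mice 3334 and 3335, the 5p call of month 3 was lost (0.68), month 4 turned to -0.32 for 3p, month 5 was called (1.14 and 1.36), 3p of CM month 1 against month 0 was called (2.00), and the 5p calls of the last CM libraries (0.67) and of Ctrl month 6 (1.31) were lost. Leaving out both mice in the deposited CPM gave 0.85 for 3p at month 2 without a call, -0.13 at month 4 and 0.019 at month 6.

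With the mouse as the replicate block, CM month 1 against month 0 gave 1.09 for 5p, the difference between arms in this change gave 1.85 and 2.80, all without a call, and Ctrl month 6 against month 0 gave 0.72 for 3p. The block changed no other call. Raw library sizes gave 1.52 for 5p of CM month 1 and 0.70 for the last CM libraries, without calls. DESeq2 called 3p of CM month 1 (1.94) and of Ctrl month 1 (-2.34).

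Of the alternatives chosen after seeing the data, leaving out Ctrl mice 3340, 3342 and 3350 gave 0.51 and 0.93 at month 0, 2.33 for 3p of Ctrl month 6 and 1.86 and 1.85 for the difference between arms. Leaving out CM mice 3336 and 3368 gave 0.36 for 5p of CM month 1 and 1.27 for 5p of the difference between arms. Recovered reads gave 1.93 for 3p of CM month 1, with a call, and 1.09 for 3p of Ctrl month 6. The ratio of the strands in the deposited CPM was 0.032, -0.026, -0.047, 0.10, -0.10 and -0.13 at months 0 to 5, without calls. At month 3, limma-trend called 5p of the deposited CPM (0.61). At validation point 1, a pseudocount of 0.1 gave -0.10 for 3p.

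Leaving out 1 mouse at a time gave 719 values, of which 626 kept direction and side, 37 lost a call, 13 gained one and 43 turned sign. In the counts, CM against Ctrl the values that did not all hold ran from -0.17 to 1.16 (3p, month 4), 0.81 to 1.35 (3p, month 5), -0.12 to 0.30 (3p, month 6), -0.43 to 0.069 (5p, month 0), 0.77 to 1.11 (5p, month 2), 0.58 to 0.79 (5p, month 3), 0.58 to 1.12 (5p, month 5) and -0.31 to 0.19 (5p, month 6). In the deposited CPM the values that did not all hold ran from -0.25 to 0.20 (3p, month 0), 0.73 to 1.16 (3p, month 2), -0.23 to 0.29 (3p, month 6), -0.25 to 0.11 (5p, month 0), 1.44 to 2.04 (5p, month 1), 0.77 to 1.21 (5p, month 2), 0.50 to 0.71 (5p, month 3), 0.75 to 1.15 (5p, month 5) and -0.25 to 0.23 (5p, month 6). For changes over time the values that did not all hold ran from 1.43 to 2.18 (3p, CM month 1), -0.51 to 0.56 (3p, Ctrl month 6), 0.61 to 1.40 (3p, last CM library), 1.50 to 2.21 (5p, CM month 1), 0.86 to 1.58 (5p, Ctrl month 6), 2.37 to 3.06 (5p, difference between arms) and 0.67 to 1.06 (5p, last CM library). In the validation cohort the values that did not all hold ran from -1.04 to 0.60 (3p, point 1), -0.49 to 1.26 (5p, point 1), -1.33 to 0.58 (5p, point 3) and -7.60 to -3.95 (5p, L against 1). Point 5 of the validation cohort and the totals of the training libraries set the depth, and the other validation points are limited to a few reads.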
